A study of Rattus norvegicus with 6 samples.

Results

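The 9 genes described here make or control MHC class II, the cell surface complex that shows peptides to CD4+ T cells, in rat liver after carbon tetrachloride (CCl4). They were taken by symbol, as RT1-Da, RT1-Db1, RT1-Ba, RT1-Bb, RT1-DMa, RT1-DMb, Cd74, Ciita and Irf8, out of 15639 gene symbols on the array, and 18 probes matched them. Class II molecules are pairs of an alpha and a beta chain that load peptides in endosomes. The invariant chain, encoded by Cd74, fills the groove until proteases trim it, and the DM pair then exchanges the remaining fragment for other peptides. The coactivator CIITA switches on the chain, DM and Cd74 genes, and dendritic cells, B cells and macrophages, including the Kupffer cells of the liver, are its main users.

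Liver RNA was hybridised to 1-colour Agilent arrays from 6 male Sprague-Dawley rats, an outbred stock bought at 5 weeks of age, with 1 array per animal. CCl4, a solvent that injures hepatocytes once cytochrome P450 has activated it, was given to 3 rats at 100 mg/kg/day, and 3 rats were given the corn oil vehicle. The labels disagree on the length of exposure, with 28 days in the series design and 9 weeks in the treatment protocol. Whole liver was used, so for every gene here more cells of a type and more RNA per cell cannot be told apart.

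Values are given as log2 signal relative to the 75th percentile of the array, which was 583 to 676 signal units, and 61.9% to 67.3% of probes were well above background. CCl4 replicate 1 shared a slide with the 3 corn oil arrays, while CCl4 replicates 2 and 3 were on a second slide scanned on another day, and values within the first slide are therefore given beside the main ones. All 6 hepatocyte markers were bright on all arrays, at 7.74 to 10.29. Corn oil replicate 3 stood apart on more single probes than any other animal: 57 probes lay at least 3 log2 units above or below all 5 other animals in it, against 6 to 27 in the others, by a limit chosen after the data had been seen. One of these probes belongs to RT1-Bb.

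All 8 class II genes that could be tested had higher means in CCl4 livers, by 1.34-fold to 1.82-fold, and none of them passed the test over all genes. These 8 of the 9 genes were well above background on all 6 arrays. The CCl4 animals lay above all corn oil animals for 7 of these 8 genes, where 11.5% of all 11933 genes tested did so. At an adjusted p below 0.05 in limma (Benjamini-Hochberg over all genes tested), 0 of 8 passed, where 0.561% of genes passed as higher and 0.637% in either direction. At an unadjusted p below 0.05 there were 7 of 8, against 9.96% of genes on the higher side, and this count was 3 with slide as a fixed block and 4 without corn oil replicate 1 or corn oil replicate 3. The median log2 change of the 8 genes was 0.67, beside -0.05 over all genes tested. Within the first slide, CCl4 replicate 1 was above every corn oil array for all 8 genes, where 27.5% of genes tested did so, and the log2 differences were 0.17 to 0.78. The genes were chosen with earlier results of these data known, so their counts beside these shares are descriptions and not tests of the set.

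**Figure D1:**
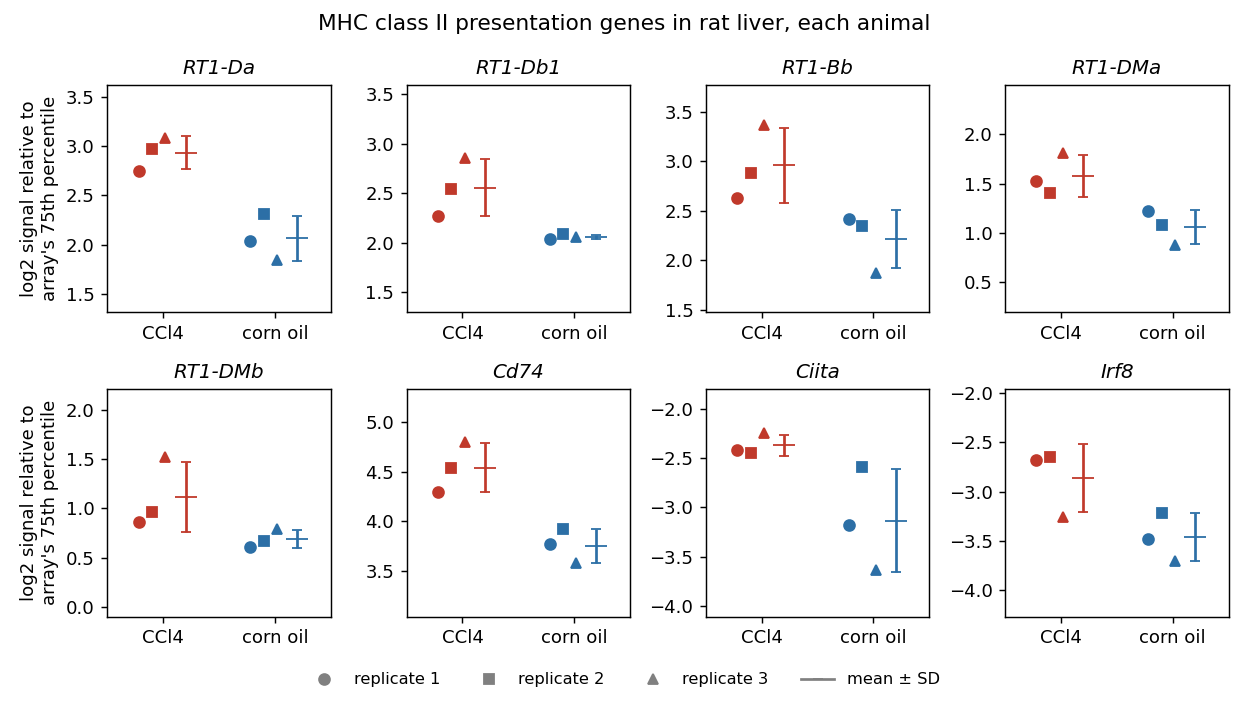
Log2 signal relative to the array's 75th percentile (y axis) for the brightest probe of 8 class II genes in 3 CCl4 and 3 corn oil livers. Points are animals, with the marker shape giving the replicate, and bars show the mean ± SD. The groups are apart in 7 panels and overlap for Irf8, where CCl4 replicate 3 lies at -3.26 and corn oil replicate 2 at -3.21.

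The RT1 genes of the set lie together on chromosome 20, and class II promoters are known for a shared pair of boxes. The X box, bound by the RFX complex, and the Y box, a reversed CCAAT motif bound by NF-Y, together form the platform on which CIITA acts. The RefSeq promoter table (build GRCr8, 250 bases before to 50 after the start) holds 7 of the 9 genes, without RT1-DMb and Ciita. A search of both strands for GNNAC, a spacer of 23 to 26 bases and TGATTGG found this pair in all 5 RT1 genes of the set that are in the table, and in 0.338% of all 33469 promoter windows, while TGATTGG alone occurs in 7.06%. The letters and the spacer range were chosen after these windows had been read, so the share is a description. Irf8 holds TGATTGG without the pair, and in the Cd74 window neither was found, which says only that these letters are not in that window. The stretches that follow are shown because these 5 RT1 members share this layout in sequence. RT1-Ba among them could not be tested for expression, and a link between layout and expression was not tested. RT1-DOa and RT1-DOb, 2 other class II genes with the pair, stand after the 5 members, and the pair was also found in RT1-Db2 and RT1-Ha. Capitals mark GNNAC and TGATTGG, and each runs 5′ to 3′ along the gene's own strand.
RT1-Da (chr20:4515321-4515382, plus strand): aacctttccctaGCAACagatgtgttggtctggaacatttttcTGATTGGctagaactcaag
RT1-Db1 (chr20:4560226-4560286, minus strand): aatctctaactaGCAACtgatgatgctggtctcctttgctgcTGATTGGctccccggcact
RT1-Ba (chr20:4576969-4577030, plus strand): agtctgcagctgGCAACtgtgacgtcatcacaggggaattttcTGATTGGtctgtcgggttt
RT1-Bb (chr20:4604163-4604223, minus strand): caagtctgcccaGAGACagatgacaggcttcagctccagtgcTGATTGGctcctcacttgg
RT1-DMa (chr20:4712383-4712444, minus strand): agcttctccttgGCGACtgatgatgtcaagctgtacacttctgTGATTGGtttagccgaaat
RT1-DOa (chr20:4758514-4758575, minus strand): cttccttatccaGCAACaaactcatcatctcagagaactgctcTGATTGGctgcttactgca
RT1-DOb (chr20:4627590-4627648, minus strand): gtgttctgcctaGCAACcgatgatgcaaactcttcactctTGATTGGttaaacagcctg
Counted from the start site, TGATTGG lies at -45 in RT1-Ba, -51 in RT1-Da, -63 in RT1-Bb, -66 in RT1-DMa and -82 in RT1-Db1.

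RT1-Da encodes the alpha chain of the RT1-D molecule, the rat counterpart of human HLA-DR. On its brightest probe it was at 2.75, 2.96 and 3.08 in CCl4 replicates 1 to 3, against 2.03, 2.31 and 1.85 in corn oil replicates 1 to 3. All CCl4 livers lay above all corn oil livers, by 0.44 between the nearest animals, the widest such gap among the 8 genes. The log2 change was 0.87 ± 0.16 (SE, n = 3 per group; limma adjusted p = 0.0701), or 0.69 within the first slide. It was the only class II gene to cross the threshold under any alternative tried, with normexp background correction (0.92, limma adjusted p = 0.0473) and with a variance trend (limma adjusted p = 0.0490), and its adjusted p over all alternatives ran up to 0.341.

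RT1-Db1, the beta chain partner of RT1-Da, was at 2.27, 2.54 and 2.85 in CCl4 livers, against 2.04, 2.08 and 2.05 in corn oil livers. The corn oil animals were close to one another on this probe, its brightest, and the lowest CCl4 liver lay 0.19 above the highest of them. On every other RT1-Db1 probe the groups overlapped, with an unadjusted p in limma of 0.113 to 0.727. The change was 0.50 ± 0.16 (SE, n = 3 per group; limma adjusted p = 0.179), and 0.22 within the first slide.

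RT1-Bb encodes the beta chain of RT1-B, the counterpart of human HLA-DQ. It was at 2.63, 2.88 and 3.37 in CCl4 livers, against 2.42, 2.35 and 1.88 in corn oil livers. The groups did not overlap, with CCl4 replicate 3 highest and corn oil replicate 3 lowest. The change was 0.75 ± 0.24 (SE, n = 3 per group; limma adjusted p = 0.176), and 0.42 within the first slide. RT1-Ba, the alpha chain partner, had 1 probe, which was not well above background on any of the 6 arrays, so it has no fold and was not tested.

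The 2 chains of DM, the peptide editor that stays inside the cell, both had higher means in CCl4 livers. RT1-DMa was at 1.52, 1.40 and 1.81 in CCl4 livers, against 1.22, 1.08 and 0.88 in corn oil livers. For RT1-DMb the values were 0.86, 0.96 and 1.52 in CCl4 livers, against 0.61, 0.67 and 0.80 in corn oil livers. Neither pair of groups overlapped, although the nearest animals were 0.18 apart for RT1-DMa and 0.06 for RT1-DMb. The changes were 0.52 ± 0.15 for RT1-DMa (SE, n = 3 per group; limma adjusted p = 0.151) and 0.42 ± 0.19 for RT1-DMb (limma adjusted p = 0.278). Within the first slide the differences were 0.46 for RT1-DMa and 0.17 for RT1-DMb, and without CCl4 replicate 3 the RT1-DMb change was 0.22.

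Cd74, the invariant chain that escorts new class II pairs to endosomes, was at 4.30, 4.53 and 4.80 in CCl4 livers, against 3.77, 3.92 and 3.57 in corn oil livers. The groups were 0.38 apart at their nearest animals. The change was 0.79 ± 0.16 (SE, n = 3 per group; limma adjusted p = 0.0832), and 0.54 within the first slide.

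Ciita, which encodes the class II transactivator, was at -2.42, -2.45 and -2.25 in CCl4 livers, against -3.18, -2.59 and -3.63 in corn oil livers. The groups did not overlap, and the corn oil livers were the more spread, with an SD of 0.11 in CCl4 livers and 0.52 in corn oil livers. Corn oil replicate 2 lay 0.14 under the lowest CCl4 liver. The change was 0.76 ± 0.26 (SE, n = 3 per group; limma adjusted p = 0.199), 0.71 within the first slide and 0.35 under normexp.

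Irf8, a transcription factor needed for one class of dendritic cells and active in other myeloid cells and B cells, followed another order among the animals. It was at -2.68, -2.65 and -3.26 in CCl4 livers, against -3.48, -3.21 and -3.70 in corn oil livers. CCl4 replicate 3 was thus the lowest of its group for Irf8 and lay within the corn oil range, while it was the highest of its group for the 7 other genes. The change was 0.60 ± 0.21 (SE, n = 3 per group; limma adjusted p = 0.205), 0.78 within the first slide and 0.20 under normexp.

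Every probe of the set was then examined on its own, since probes of the RT1 family can share signal between genes. Of the 18 probes, 16 were tested, and the log2 change was positive for all 16, from 0.14 to 1.70. At an adjusted p below 0.05 over the 40478 probes tested, limma called 0 of them, against 0.287% of all probes as higher, and the smallest adjusted p was 0.0988. At an unadjusted p below 0.05 there were 10 of 16, against 7.88% of probes on the higher side. The groups did not overlap for 11 of 16, against 9.69%. Both probes of RT1-Da gave similar changes, at 0.87 and 0.79, as did those of RT1-Bb at 0.75 and 0.80, those of RT1-DMa at 0.52 and 0.60 and those of Ciita at 0.76 and 0.50. Probes of 1 gene read the same RNA and are not replicates of the comparison.

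**Figure D2:**
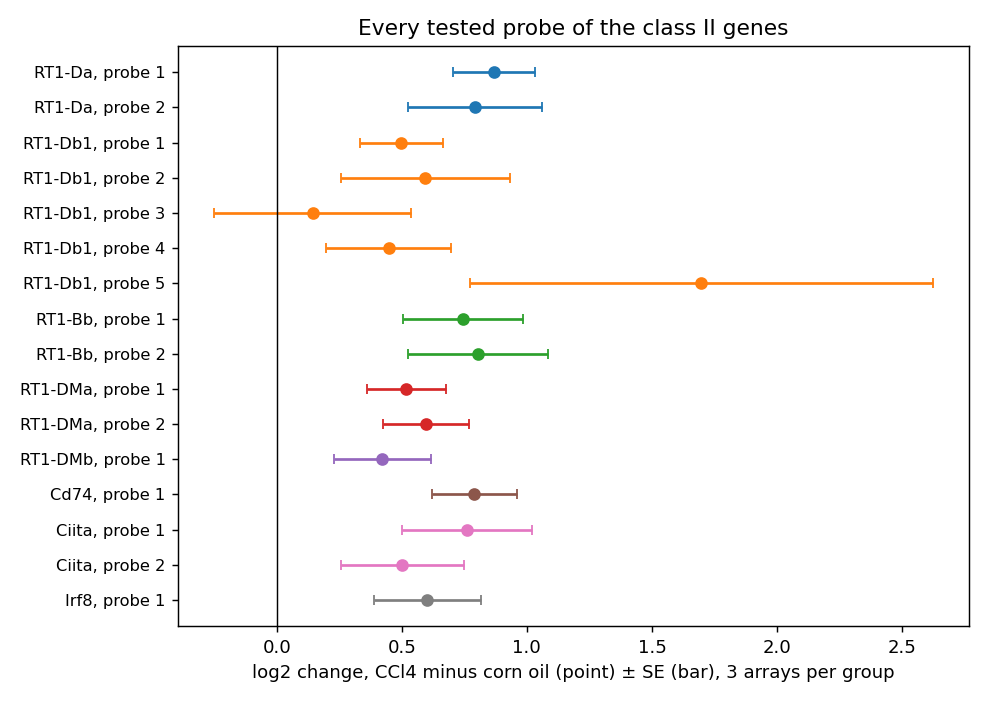
Log2 change of CCl4 minus corn oil (x axis) for the 16 tested probes of the class II genes, numbered within each gene from the brightest in CCl4 livers. Points are fitted changes and bars are ± SE with 3 arrays per group, and the 5 RT1-Db1 probes range from 0.14 to 1.70, wider than those of any other gene.

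The beta chain genes had probes on which a single corn oil animal stood apart. The third probe of RT1-Bb was at -6.91, -7.30 and -7.38 in CCl4 livers, against -7.53, -7.41 and 1.40 in corn oil replicates 1 to 3. Only corn oil replicate 3 was well above background there, and its other RT1-Bb probes were the lowest of all 6 animals, at 1.88 and 0.62.

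On the fifth probe of RT1-Db1 the same animal was the low one, with -1.75, -1.36 and -1.95 in CCl4 livers, against -2.67, -1.83 and -5.65 in corn oil livers. On the third RT1-Db1 probe it was the highest of all 6 livers, with 1.69, 1.85 and 2.21 in CCl4 livers, against 1.31, 1.31 and 2.69 in corn oil livers. On the second probe it was the lowest of the 6 and on the fourth the highest of the corn oil livers. With all arrays the 5 probes gave changes of 0.14 to 1.70, and without corn oil replicate 3 they gave 0.32 to 0.68. The changes of the 8 genes on their brightest probes had a median of 0.50 without this animal, beside 0.67 with it, and 4 of 8 rather than 7 of 8 were then at an unadjusted p below 0.05. What sets this animal apart on these probes was not tested.

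**Figure D3:**
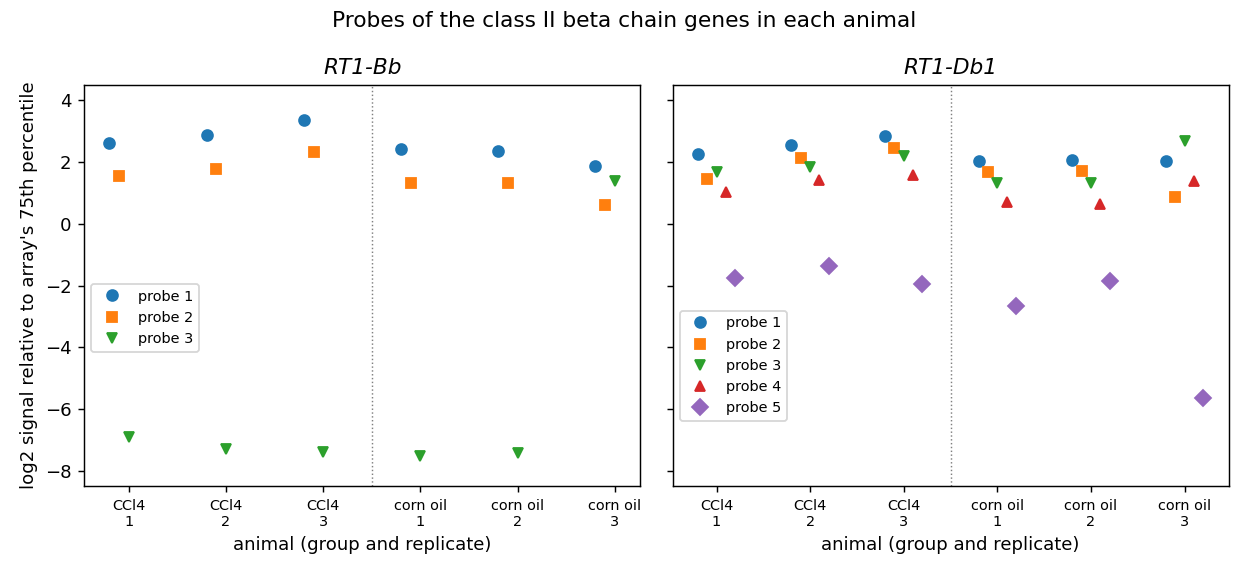
Log2 signal relative to the array's 75th percentile (y axis) in each animal (x axis) for the 3 probes of RT1-Bb and the 5 probes of RT1-Db1, numbered from the brightest in CCl4 livers. Corn oil replicate 3 is at 1.40 on the third RT1-Bb probe, where the other 5 animals lie between -7.53 and -6.91, and at -5.65 on the fifth RT1-Db1 probe.

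Of 27 other genes of the class II route 25 were tested. Limma called 0 in either direction, and at an unadjusted p below 0.05 there were 1 higher, the protease gene Ctsd (0.43 ± 0.14, SE), and 1 lower, the protease gene Ctsh (-0.48 ± 0.20), where 9.77% of all genes tested were on the lower side. Their median log2 change was 0.11, and the groups did not overlap for 2 on the higher and 2 on the lower side, where 15.9% of all genes tested were on the lower side.

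Among the endosomal enzymes, Ifi30, the reductase that opens disulfide bonds of antigens, was at 4.83, 4.89 and 4.94 in CCl4 livers, against 4.53, 4.71 and 4.69 in corn oil livers (change 0.24 ± 0.10, SE; limma adjusted p = 0.259). Ctss, the protease that trims the invariant chain in antigen-presenting cells, was at 3.58, 3.58 and 3.80 in CCl4 livers, against 3.42, 3.85 and 3.66 in corn oil livers, a change of 0.01 ± 0.14. Lgmn, an asparaginyl endopeptidase that starts that trimming, was at 0.19 ± 0.13. The groups overlapped for Ctss and Lgmn and not for Ifi30.

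DO is the pair that restrains DM, and both of its genes overlapped between the groups. RT1-DOb was at -3.72, -3.55 and -2.84 in CCl4 livers, against -3.35, -4.21 and -2.82 in corn oil livers, a change of 0.09 ± 0.40 (SE, n = 3 per group). RT1-DOa was well above background on 1 of 3 CCl4 and 3 of 3 corn oil arrays, with a change of 0.26 ± 0.26. Whether the DO and DM changes differ was not tested.

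Among the factors that bind the promoter pair, the log2 changes of the RFX subunit genes were -0.30 ± 0.25 for Rfx5, -0.24 ± 0.10 for Rfxank and -0.30 ± 0.13 for Rfxap (SE, n = 3 per group). Rfxank did not overlap between the groups, with 2.42, 2.32 and 2.31 in CCl4 livers, against 2.68, 2.59 and 2.50 in corn oil livers. The NF-Y subunit genes were at 0.25 ± 0.13 for Nfya, -0.52 ± 0.27 for Nfyb and -0.17 ± 0.12 for Nfyc. None of these 6 genes passed, with limma adjusted p of at least 0.259. The costimulatory genes Cd40 (0.17 ± 0.16), Cd80 (-0.11 ± 0.44) and Cd86 (0.21 ± 0.16) did not pass either, and their groups overlapped.

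Class I molecules show peptides to CD8+ T cells. Of 24 class I presentation genes 21 were tested, the median log2 change was 0.22 and 0 were called by limma. At an unadjusted p below 0.05, 2 were higher and 0 lower. Over all genes tested 9.96% were higher and 9.77% lower, which also holds beside such counts for the lists below. The groups did not overlap for 3 of the 21, RT1-A2, Tap1 and Psmb9, all higher, where 11.5% of all genes tested did so. RT1-A2, a classical class I heavy chain gene, was at 5.50, 5.66 and 5.38 in CCl4 livers, against 4.76, 4.95 and 4.61 in corn oil livers (0.74 ± 0.13; limma adjusted p = 0.0697). B2m, the light chain of class I, was at 0.11 ± 0.10, Tap1, a peptide transporter subunit, at 0.57 ± 0.24, and Psmb8, an immunoproteasome subunit, at 0.22 ± 0.20. No probe matched Nlrc5, the class I transactivator.

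Interferon gamma is the best known inducer of Ciita, and the genes of its axis had a median change of 0.17 over the 15 tested of 20. Limma called 0 of them, with 2 higher and 1 lower at an unadjusted p below 0.05. The probe for Ifng was not well above background on any array. Irf1, an interferon-induced transcription factor, was at -0.10 ± 0.12, and the receptor chain gene Ifngr1 at 0.06 ± 0.12. The guanylate-binding protein gene Gbp5 was at -0.07, 0.11 and -0.33 in CCl4 livers, against -0.86, -0.40 and -1.39 in corn oil livers, with no overlap (0.78 ± 0.27; limma adjusted p = 0.197). Jak2 was also higher without overlap (0.41 ± 0.12), and the chemokine gene Cxcl11 was lower without overlap (-0.28 ± 0.11). The chemokine genes Cxcl9 (0.66 ± 0.30) and Cxcl10 (0.48 ± 0.31) had higher means in CCl4 livers, with overlap between the groups. Among 16 tested transcription factors of the IRF family and of myeloid or lymphoid cells, the median was -0.04 and 0 were called by limma, with 4 higher and 3 lower at an unadjusted p below 0.05. Spi1, the myeloid factor PU.1, was at 0.29 ± 0.16.

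**Figure D4:**
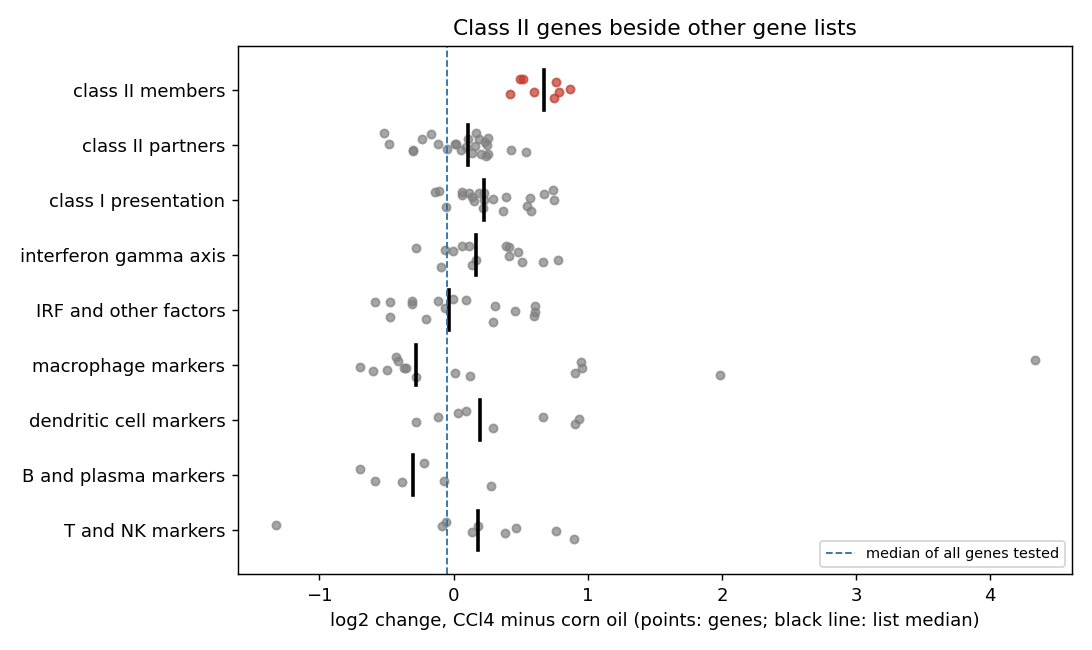
Log2 change of CCl4 minus corn oil (x axis) for the class II genes and 8 other gene lists (y axis). Points are genes on their brightest probe, black lines are list medians and the dashed line is the median of all genes tested. The class II median is 0.67, beside 0.11 for class II partners and 0.22 for class I presentation.

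The level of each list was also read animal by animal. Setting each gene against its corn oil mean, the class II median was 0.50, 0.68 and 0.85 in CCl4 replicates 1 to 3, against -0.02, 0.15 and -0.20 in corn oil replicates 1 to 3. CCl4 replicate 3 was the highest CCl4 liver for 7 of the 8 genes and 14 of the 16 probes. The class I median was 0.25, 0.33 and 0.11 in the CCl4 livers, so that CCl4 replicate 3 was the lowest of its group there. The interferon gamma median was 0.45, 0.18 and 0.17 in the CCl4 livers, with replicate 1 highest. The class II partners were at -0.03, 0.06 and 0.17 in CCl4 replicates 1 to 3. Replicate 3 was thus highest there too, as it was for the macrophage markers (-0.39, -0.28 and -0.08), the T and NK markers (0.18, 0.25 and 0.27) and the endothelial markers (-0.17, 0.03 and 0.20), so this order was not limited to class II genes. It was also highest for the B and plasma markers (-0.36, -0.38 and -0.05), the hepatocyte markers (-0.26, -0.30 and -0.17) and all genes tested (-0.04, -0.07 and -0.02). For the dendritic cell markers (0.29, 0.27 and 0.11) and the transcription factors (-0.03, 0.12 and -0.13) it was the lowest CCl4 liver.

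**Figure D5:**
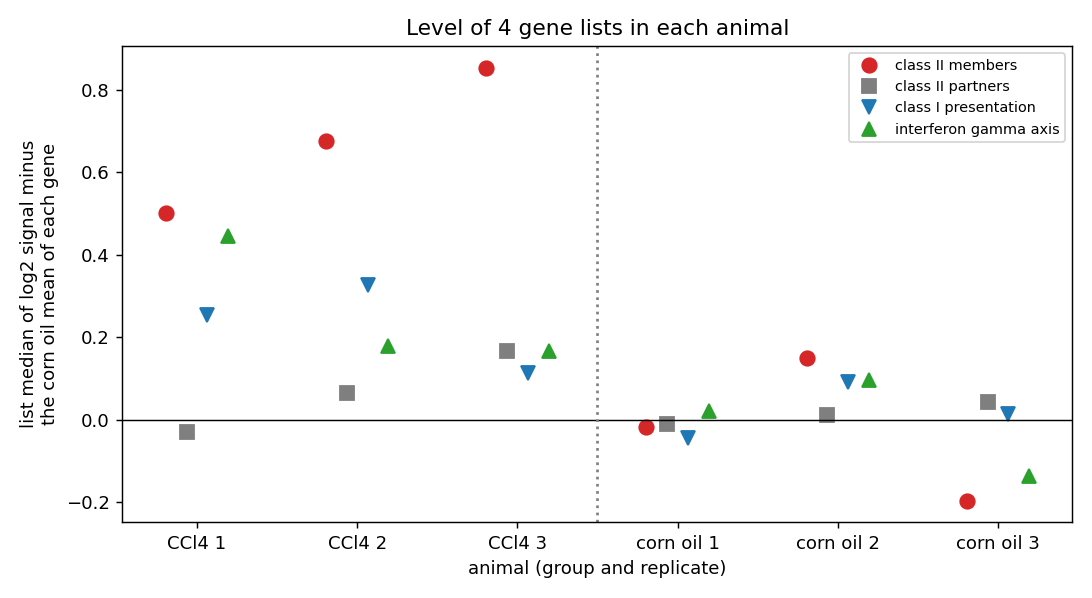
Median over each of 4 gene lists of the log2 signal minus that gene's corn oil mean (y axis) in each animal (x axis). The class II median is highest in CCl4 replicate 3, at 0.85, where the class I median is 0.11, the lowest of the 3 CCl4 animals.

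Markers of the cells that carry class II did not all move the same way, and their part in the class II values was not tested. Of 16 macrophage and monocyte markers 15 were tested, with a summed level of 189 to 221 times the 75th percentile in CCl4 livers and 202 to 232 in corn oil livers. Their median log2 change was -0.28, and 1, the lipid receptor gene Trem2, was called by limma as higher (4.33 ± 0.32, SE; adjusted p = 0.0106), while 4 were higher and 3 lower at an unadjusted p below 0.05. The other 3 on the higher side were Itgam, an integrin chain of monocytes and neutrophils (1.99 ± 0.35; limma adjusted p = 0.0665), Lyz2, the lysozyme gene of myeloid cells (0.96 ± 0.15; limma adjusted p = 0.0563), and Marco, a scavenger receptor gene of macrophages (0.91 ± 0.24; limma adjusted p = 0.129), and like Trem2 they did not overlap between the groups. The complement gene C1qc was at -0.60 ± 0.15, also without overlap. The Kupffer cell lectin Clec4f was at -0.35 ± 0.14, Cd68 at 0.13 ± 0.13 and the growth factor receptor gene Csf1r at 0.01 ± 0.24.

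Of 13 dendritic cell markers 8 were tested, with a summed level of 9.93 to 13.8 in CCl4 livers and 7.40 to 9.40 in corn oil livers. Sirpa and Itgae, which other cells also express, made up most of that sum in every animal. The median log2 change of the 8 was 0.19, and 0 were called by limma, while 3 were higher and 1 lower at an unadjusted p below 0.05. The 3 were Cd83, an activation marker (0.90 ± 0.22; limma adjusted p = 0.105), Itgae (0.93 ± 0.26) and Clec10a, a lectin of dendritic cells and macrophages (0.67 ± 0.23). Clec9a, which marks the cross-presenting class, was at -0.28 ± 0.10. Xcr1, another gene of that class, was not well above background on any array, and no probe matched Itgax, Flt3, Cd207 or Siglech.

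Of 11 B and plasma cell markers 6 were tested, with a summed level of 2.75 to 3.34 in CCl4 livers and 3.95 to 4.11 in corn oil livers and a median of -0.30. Pax5 (-0.58 ± 0.13) made up most of that sum in every animal, and without it the sums of the groups overlapped. Cd79b, a chain of the B cell receptor, was at -0.38 ± 0.20, and 0 of the 6 were called by limma, while 0 were higher and 2 lower at an unadjusted p below 0.05. Cr2 was not well above background on any array, and no probe matched Ms4a1 or Cd79a. Of 10 T and NK markers 9 were tested, and 1, the granzyme gene Gzma, was called by limma as lower (-1.32 ± 0.14, SE; adjusted p = 0.0252), while 1 was higher and 1 lower at an unadjusted p below 0.05. Cd4 was at 0.14 ± 0.11. Of the CD3 chain genes, Cd3d was at 0.19 ± 0.18 and Cd3g at 0.38 ± 0.33, while Cd3e, at 0.90 ± 0.58, was well above background on 2 of 3 arrays in each group. Cd8a was at -0.09 ± 0.15 and Cd8b at 0.76 ± 0.24. Endothelial markers had a summed level of 32.6 to 39.1 in CCl4 livers and 40.3 to 47.3 in corn oil livers (4 of 6 tested). Kdr (-0.38 ± 0.12) made up most of that sum in every animal. The median log2 change of the list was 0.05, with 2 genes positive and 2 negative. The 6 hepatocyte markers had a summed level of 3841 to 4310 in CCl4 livers and 4676 to 4980 in corn oil livers. Limma called 0 of either list, and 1 endothelial and 2 hepatocyte genes were lower at an unadjusted p below 0.05. Alb, the albumin gene, was at -0.21 ± 0.14.

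The 5 genes outside the set whose pattern was most like that of Cd74, by Pearson r over the 6 arrays among 11095 genes well above background on all of them, were Ccl2, Gpr183, Lman1, Nudt9 and Zpr1, with r of 0.995 to 0.986. This r includes the difference between the groups, so it is a description of 6 arrays and not a test. It takes no account of the size of a change. In that order the log2 changes were 1.93 ± 0.29 (SE), 1.36 ± 0.26, 0.69 ± 0.12, 0.19 ± 0.10 and 0.13 ± 0.09. Ccl2, the monocyte attractant, was at -0.61, -0.37 and 0.35 in CCl4 livers, against -2.13, -1.80 and -2.51 in corn oil livers. It shared with Cd74 the order of the CCl4 animals, with replicate 3 highest, and of the corn oil animals, with replicate 3 lowest. Since Ccl2 was picked by r over these same arrays, that shared order is not a separate result. Within the set, r with Cd74 was 0.988 for RT1-Da, 0.960 for RT1-Bb, 0.951 for RT1-Db1, 0.927 for RT1-DMa, 0.884 for Ciita, 0.831 for RT1-DMb and 0.648 for Irf8.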

How the data were processed

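Per the labels, liver RNA from each rat was labelled with Cy3 for 1-colour Agilent arrays. The deposited scanner files hold intensity per spot, from which Agilent Feature Extraction (10.7.1.1 per the file headers) had subtracted background, with arrays not put on a common scale. The authors' deposited value table is on a linear ratio scale and equals the processed signal over 1 divisor per array (583.3 to 676.5), with that divisor's origin not given in the sources used here; its column medians were 0.103 to 0.110. It served as an alternative.

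Control spots and 26 outlier-flagged probes were left out. From log2 signals the 75th percentile of the same array was taken away. Gene symbols came from a GRCr8 gene table through the unversioned RefSeq accession (28193 of 61537 probes). Testing needed a signal well above background on at least 3 of 6 arrays, and each gene was read from its brightest such probe. Groups, set by the treatment label, were tested in limma (3.58.1, under R 4.3.3; lmFit and two-sided eBayes tests). Adjustment over all features followed Benjamini and Hochberg, and the code was tested on simulated data. The labels describe replicates as animals. With 3 against 3, an exact permutation test cannot go below 0.1, and the number of arrays limits the precision.

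The members, gene lists and marker lists were chosen with earlier results of these data known. Every member was to be named, with set genes of each list, list genes past the threshold and the 5 genes most like Cd74; other list genes named were chosen after their values were seen. Some of the set genes are not reported here. Alternatives were other scalings and background corrections (normexp on median spot signals), filters, probe means, a variance trend, slide or replicate blocks and leaving out each array. Tables and figures were made in Python 3.11.15.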

Additional observations from a re-analysis of the deposited data

How the results depend on the processing

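The log2 change was positive for the 8 tested genes under all 18 alternatives (144 of 144 values), and their median was 0.50 to 0.77, beside 0.67. These are not 18 separate checks of the change. For these genes both other filters, the variance trend and the replicate block gave the same changes as the main fit. The authors' values gave nearly the same, and the fixed slide block gave those of the first slide alone. The count of members called by limma, 0 of 8 (7 at an unadjusted p below 0.05), was 1 under normexp and 1 with a variance trend, RT1-Da each time, and 0 under the other 16. The count of member probes called was 0 under all 17 alternatives run on probes. Members at an unadjusted p below 0.05, a count added after seeing the data, were 3 with slide as a fixed block, 3 within the first slide and 4 to 7 when 1 array was left out, with 4 without corn oil replicate 1 or corn oil replicate 3. Over all genes, the 76 called became 217 under normexp, 140 with the filter on all 6 arrays, 156 with a variance trend, 4 with slide as a fixed block, 10 with the replicate block, and 0 within the first slide (limma, where 841 genes were higher and 757 lower at an unadjusted p below 0.05). Leaving out 1 array gave 2 to 241, with 27, 43 and 5 without corn oil replicates 1, 2 and 3 and 6, 2 and 241 without CCl4 replicates 1, 2 and 3. The causes were not tested. The replicate numbers share only a name: deviations from the group means correlated at -0.05, 0.16 and 0.02 between same-numbered animals, not every animal correlated best with its own number, and under the replicate block 0 members were called and 7 were at an unadjusted p below 0.05. Within the first slide the lone CCl4 array is assumed to vary like the corn oil arrays. Signal over background limits RT1-Ba, above it on none of the arrays, RT1-DOa and Cd3e, above it on 4 of 6, and Rfx5, Cd80 and Itgam, above it on 5.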

Other observations

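Corn oil replicate 3 also stood apart on some other genes of the MHC region, looked up after the beta chain probes had been seen. It lay within the range of the other animals on RT1-A1, RT1-S3, RT1-M3-1, RT1-DOa and Tap1. On RT1-A2, RT1-CE5, RT1-N3 and RT1-Db2 it was the lowest of all animals. On RT1-CE16 and RT1-DOb it was the highest, by a small margin. The class I gene RT1-CE1 was at 4.66, 5.98 and 5.70 in CCl4 livers, against 5.51, 5.85 and 3.86 in corn oil replicates 1 to 3. Tap2, the partner of Tap1 in the peptide transporter, was at 1.97, 2.39 and 2.61 in CCl4 livers, against 2.36, 2.07 and 0.90 in corn oil livers. The single probe of RT1-A3, a class I gene, was at -6.32, -5.84 and -4.67 in CCl4 livers, against -5.11, -6.12 and -1.18 in corn oil livers, and was well above background on 3 of the 6 arrays. Of the 57 probes on which this animal lay at least 3 log2 units from all others, 13 were higher and 44 lower, 27 had a gene symbol, and 2 of these were RT1 genes, RT1-A3 and RT1-Bb. The other 5 animals had 2 to 9 such probes with a gene symbol each, and none of these was an RT1 probe. The fifth RT1-Db1 probe fell just short of the limit, with corn oil replicate 3 at -2.98 from the lowest other animal. With counts this small, and the share of RT1 probes on the array not given, whether RT1 probes stand out was not tested.

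Itgae, an integrin chain of intraepithelial lymphocytes and some dendritic cells, was at 2.36, 1.89 and 1.30 in CCl4 livers, against 0.94, 0.89 and 0.93 in corn oil livers. CCl4 replicate 3, the highest of its group for Cd74, was the lowest of its group here. Pax5, the B cell factor, was at 0.73, 0.59 and 0.95 in CCl4 livers, against 1.20, 1.40 and 1.41 in corn oil livers, a change of -0.58 ± 0.13 (SE, n = 3 per group; limma adjusted p = 0.0964).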
